A study of Homo sapiens with 4 samples.

Results

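Natural antisense and divergent long noncoding RNAs (lncRNAs) are named after a neighbouring gene, and their m6A peaks were set beside the peaks of that gene. From a list of N6-methyladenosine (m6A) peaks of MDA-MB-231 cells, peaks were kept whose gene is a lncRNA or antisense RNA and whose symbol ends in -AS (antisense), -DT (divergent transcript), -IT (intronic transcript) or -OT (overlapping transcript), with or without a number. OIP5-AS1 was left out by rule and had 0 peaks in the list. This gave 847 peaks of 488 gene IDs, out of 20261 peaks of 10140 gene IDs (4.18% of peaks, 95% Wilson interval 3.91% to 4.46%). Another 24 peaks of 17 genes with such a suffix had no biotype in RefSeq, and 10 peaks of 2 genes had another biotype (TP73-AS1, a transcribed pseudogene there, and ZNF470-DT, protein coding there), so these were not counted. No measured value was used to choose the peaks.

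MDA-MB-231 is an established cell line of human triple negative breast cancer. For m6A-seq, poly(A) RNA is broken into fragments and immunoprecipitated (IP) with an antibody against m6A, and stretches with more reads in the IP than in the input RNA, which was not immunoprecipitated, are listed as peaks. The series held 4 libraries, 2 input and 2 IP, and the titles of all 4 carry shNS, which the labels do not explain. The treatment label of both IP libraries reads IP-YTHDC1, while their titles and protocol describe the anti-m6A antibody, and that reading was used.

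The list gives 1 score per peak for the 4 libraries together. Hence there was no spread between replicates, no condition to compare and no test, and how many reads lie behind a peak is unknown. A smaller score marks a stronger peak: it was taken for the p-value given by the peak caller, although the header leaves unsaid if it is that or an FDR. Shares carry Wilson intervals, which count peaks as if independent of each other and hold no other error. The sequencing kit keeps the strand of the RNA, but whether reads were counted by strand when peaks were called is not given in the sources used here. Where a lncRNA peak shares bases with a peak on the other strand, the reads of both genes therefore cannot be told apart.

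m6A is set on adenosines of nascent RNA by a METTL3 and METTL14 methyltransferase, mostly within the sequence written RRACH, and is read by YTH domain proteins, of which YTHDC1 is the nuclear one. An antisense lncRNA is transcribed from the strand opposite its host gene and may run across the exons of the host, whereas a divergent transcript starts near the host promoter and runs away from it. Several of these lncRNAs are known to act on the expression of their host gene, but most have no assigned function.

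The start sites of the lncRNAs were where sequence could be read, since only promoter windows of RefSeq (build GRCh38.p14, 250 bases before to 50 after each start) were at hand. Of the 847 peaks, 76 peaks of 75 genes shared bases with the window of their own gene. The 6 with the smallest scores are shown, chosen among 34 whose window holds at least 100 bases, peak bases included, outside every protein-coding gene span. Only that stretch is printed, 5′ to 3′ on the strand of the lncRNA, and capitals mark bases covered by the peak. They are TBC1D22A-DT (chr22:46762479-46762649, minus strand, 171 bases), TUBA1B-AS1 (chr12:49131396-49131655, plus, 260 bases), HK2-DT (chr2:74833938-74834126, minus, 189 bases), PRMT5-AS1 (chr14:22919206-22919505, plus, 300 bases), SLC25A5-AS1 (chrX:119468213-119468443, minus, 231 bases) and CKAP2-DT (chr13:52455297-52455477, minus, 181 bases).
TBC1D22A-DT: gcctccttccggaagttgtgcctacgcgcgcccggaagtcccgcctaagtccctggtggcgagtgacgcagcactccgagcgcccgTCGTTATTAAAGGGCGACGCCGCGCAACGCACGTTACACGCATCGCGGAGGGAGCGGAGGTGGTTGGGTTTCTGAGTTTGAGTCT
TUBA1B-AS1: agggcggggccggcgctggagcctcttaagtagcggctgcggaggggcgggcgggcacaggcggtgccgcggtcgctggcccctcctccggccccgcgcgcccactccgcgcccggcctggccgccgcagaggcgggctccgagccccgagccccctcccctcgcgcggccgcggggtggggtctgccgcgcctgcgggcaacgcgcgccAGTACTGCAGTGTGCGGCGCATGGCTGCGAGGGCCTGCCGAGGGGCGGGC
HK2-DT: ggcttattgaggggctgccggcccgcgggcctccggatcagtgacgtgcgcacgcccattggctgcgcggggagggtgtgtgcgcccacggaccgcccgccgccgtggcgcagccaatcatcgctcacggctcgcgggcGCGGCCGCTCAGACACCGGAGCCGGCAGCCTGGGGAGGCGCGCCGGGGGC
PRMT5-AS1: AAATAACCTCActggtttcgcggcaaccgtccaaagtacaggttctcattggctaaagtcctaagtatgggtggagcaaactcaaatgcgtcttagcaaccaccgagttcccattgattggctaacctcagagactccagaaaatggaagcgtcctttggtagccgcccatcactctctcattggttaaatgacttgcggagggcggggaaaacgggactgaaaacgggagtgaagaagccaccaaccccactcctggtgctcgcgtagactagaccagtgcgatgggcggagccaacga
SLC25A5-AS1: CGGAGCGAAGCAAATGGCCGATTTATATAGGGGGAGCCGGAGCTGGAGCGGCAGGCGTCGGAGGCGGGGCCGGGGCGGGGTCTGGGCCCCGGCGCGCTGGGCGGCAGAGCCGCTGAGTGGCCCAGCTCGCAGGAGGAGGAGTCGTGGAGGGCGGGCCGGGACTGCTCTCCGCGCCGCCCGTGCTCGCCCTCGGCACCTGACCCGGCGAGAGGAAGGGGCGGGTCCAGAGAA
CKAP2-DT: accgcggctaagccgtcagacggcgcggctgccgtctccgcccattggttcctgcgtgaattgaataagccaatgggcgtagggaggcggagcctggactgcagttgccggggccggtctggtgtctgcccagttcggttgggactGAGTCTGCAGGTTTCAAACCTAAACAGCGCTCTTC

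The peak of TBC1D22A-DT (score 1e-117) covered 85 of these bases of which 35 lay upstream of the annotated start, towards the host TBC1D22A, which encodes a protein with a Rab GTPase-activating domain. The peak of TUBA1B-AS1 (4e-65), beside the alpha-tubulin gene TUBA1B, covered the 50 bases after the start. HK2-DT, which runs away from the hexokinase gene HK2, also had its first 50 bases covered (1.6e-50). The peak of PRMT5-AS1 (7.9e-26), named after an arginine methyltransferase gene, covered 11 bases at the far end of the window, before the annotated start. SLC25A5-AS1 (2e-21), opposite the gene of an ADP/ATP carrier, had all 231 bases covered, and CKAP2-DT (2e-20) had 35. Thus 4 of the 6 peaks covered the first bases after the start, and those of TBC1D22A-DT and SLC25A5-AS1 also ran upstream of it. The TUBA1B-AS1 peak had a separate block further upstream. Of that block 26 bases lay in the window, inside the TUBA1B span, and are not printed. Peaks of TBC1D22A-DT, HK2-DT, SLC25A5-AS1 and CKAP2-DT shared no base with a peak on the other strand, whereas that of TUBA1B-AS1 shared bases with a TUBA1B peak and that of PRMT5-AS1 with a peak of RBM23, a gene of an RNA-binding protein.

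The letters GGACT, and likewise those with A or C in the last place (GGACA; then GGACC) and AGACT, all of which fit the RRACH context, were searched in the printed stretches and in all windows on both strands. They were counted on their own and can overlap each other by 1 end letter only. Within the capitals on the lncRNA strand, GGACT stood 1 time in SLC25A5-AS1, and none of these letters stood in the capitals of the other 5. GGACT stood on the transcript strand in 24.2% of the 447 windows of the lncRNA genes with peaks and in 25.3% of all 35116 windows. For GGACA these shares were 26.6% and 25.4%, for GGACC 31.1% and 27.1%, and for AGACT 16.8% and 21.0%. Counting either strand, the shares were 43.0% and 44.2% for GGACT, 44.7% and 43.8% for GGACA, 52.6% and 46.3% for GGACC, and 28.4% and 37.1% for AGACT. The shares for GGACT and GGACA thus lay close to those of promoters at large, that for GGACC above and that for AGACT below. A match is a description of the sequence only.

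Taken over both strands, the 847 peaks were weaker than the list at large and of about the same length. Their median score was 1.6e-05 (quartiles 1.05e-10 and 0.00044), against 5.2e-08 over the whole list and 3e-05 over 402 peaks of other lncRNA genes. The list median was reached or bettered by 302 peaks (35.7%, 32.5% to 38.9%; 50% of all peaks). Only 3 had a score of 0, the smallest that can be stored (0.354%; 2.30% of all peaks): FGD5-AS1, IER5L-AS1 and PHLDA1-AS1. The median length was 208 bases (range 58 to 2106; 211 over all peaks), and 86.1% of peaks lay in 1 block (82.1% of all peaks). There were 1.74 ± 1.20 peaks per gene (SD over 488 gene IDs; 2.0 ± 1.45 over all 10140), with 299 genes at 1 peak and 97 at 3 or more. The minus strand held 615 peaks (72.6%), about the same share as in the whole list (72.3%).

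By name, 619 peaks of 349 genes were antisense, 223 of 135 genes divergent, 4 of 3 genes overlapping and 1 intronic. The names were checked against the strand and position of the host. Its strand was that of its peaks in the list or, where it had none, that of its RefSeq promoter, and positions were from RefSeq. The host lay on the other strand for 447 of the 452 genes with a host strand known, and on the same strand for ANXA2R-OT1, FAM131B-AS2, GABPB1-IT1, SOD2-OT1 and ST7-OT4. The name before the suffix was no gene for 7 lncRNAs of the HOX clusters. Divergent peaks had their midpoint upstream of the host 5′ end in 206 of 210 cases (98.1%), at a median distance of 1978 bases. Of 607 antisense peaks with a host span, 315 (51.9%) lay on it, and 9 of 223 divergent peaks did (4.04%).

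Peaks on both strands were compared first. Of the 847 peaks, 232 (27.4%, 24.5% to 30.5%) shared at least 1 base with a peak of any gene on the other strand, against 10.0% of all peaks and 9.95% of the 402 other lncRNA peaks. The share was 59.1% for lncRNA peaks on the plus strand (137 of 232; 17.8% of all plus-strand peaks) and 15.4% for those on the minus strand (95 of 615; 7.07% of all minus-strand peaks). Over the 847 peaks together it was thus above the level of the whole list on both strands, and higher on the plus strand. The classes differed, with 34.1% of antisense peaks (211 of 619) and 8.52% of divergent peaks (19 of 223, 5.52% to 12.9%). The interval for divergent peaks of both strands together included the 10.0% of all peaks, but the strands differed. Divergent peaks had a partner in 31.4% on the plus strand (11 of 35, 18.6% to 48.0%), an interval above the 17.8% of all plus-strand peaks. On the minus strand 4.26% had one (8 of 188, 2.17% to 8.17%), an interval that included the 7.07% of all minus-strand peaks.

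In 168 peaks (19.8%, 17.3% to 22.7%) of 131 lncRNA symbols, the partner was the host gene itself. These made 173 pairs with 164 host peaks. Of antisense peaks, 26.5% (164 of 619, 23.2% to 30.1%) shared bases with a host peak, and of divergent peaks 1.79% (4 of 223, 0.700% to 4.52%). Divergent transcripts run away from the host, and few of their peaks lay on its span (9 of 223, against 315 of 607 antisense peaks). On the span of a host with a peak, 158 of 264 antisense peaks (59.8%) shared bases with it. Of divergent peaks there, 2 of 5 did (40.0%, 11.8% to 76.9%). Antisense peaks on the plus strand shared bases with a host peak in 49.0% (96 of 196) and those on the minus strand in 16.1% (68 of 423). Among antisense peaks on the host span whose host had a peak, 93 of 125 plus-strand peaks (74.4%, 66.1% to 81.2%) and 65 of 139 minus-strand peaks (46.8%, 38.7% to 55.0%) shared bases with it. Off the host span, 6 of 292 antisense peaks did. Another 64 peaks (7.56%) met only a gene other than the host, and 615 (72.6%, 69.5% to 75.5%) stood alone, with no base shared on the other strand.

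**Figure D1:**
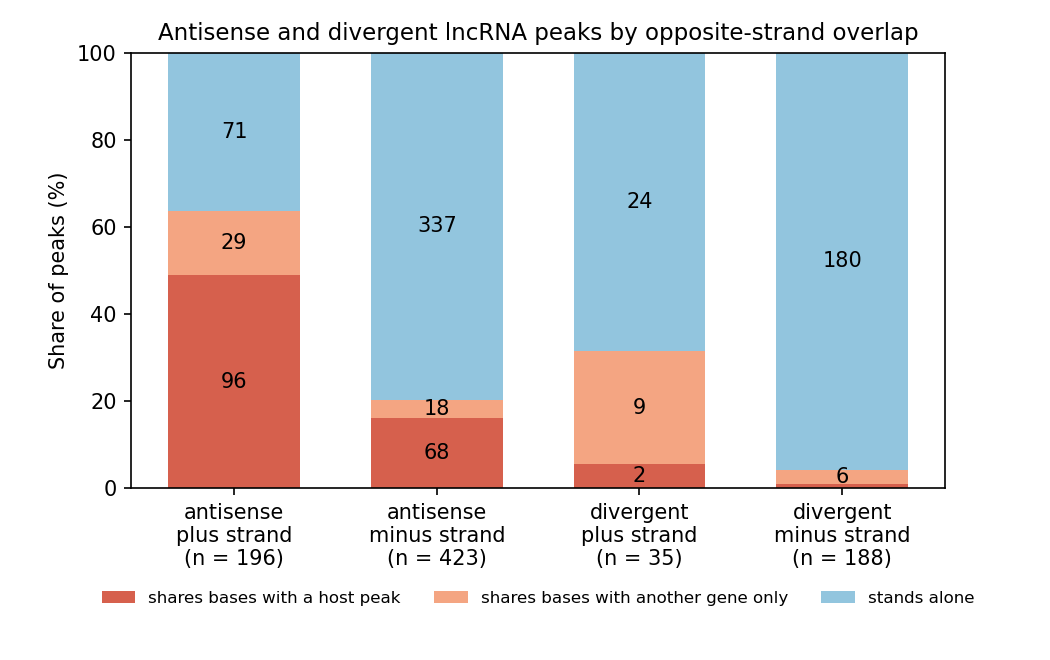
Share of peaks (%) in each state of opposite-strand overlap, for antisense and divergent lncRNA peaks by strand, with the number of peaks printed in the bar where it is over 3% of the peaks. Of 196 antisense plus-strand peaks 96 met a host peak and 71 stood alone, while 337 of 423 antisense minus-strand peaks and 180 of 188 divergent minus-strand peaks stood alone.

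Strong lncRNA peaks on the plus strand almost all had a partner. At a −log10 score of 20 or more, a threshold chosen after the scores were seen, 44 of 45 plus-strand peaks shared bases with a peak on the other strand, and 15 of 76 minus-strand peaks did. Over all peaks of that strength the shares were 39.1% on the plus strand (292 of 747) and 7.59% on the minus strand (388 of 5110). At 50 or more the counts were 22 of 23 and 10 of 37, and at 100 or more 9 of 9 and 5 of 16. The only plus-strand lncRNA peak at 20 or more that stood alone was that of PITX1-AS1 (6.3e-54), which lies opposite the homeobox gene PITX1. Its 2 blocks spanned chr5:135033280-135052493, and a PITX1 peak overlapped that span but shared no base with either block.

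Scores followed the same order. The median score of peaks that met a host peak was 7.5e-09, with 3e-12 on the plus strand (n = 98) and 1.6e-06 on the minus strand (n = 70). Peaks that met only another gene had a median of 1.8e-06, and those that stood alone 3.2e-05, with 0.00014 on the plus strand (n = 95) and 2.4e-05 on the minus strand (n = 520). Over all plus-strand peaks of the list the median was 2.1e-08 with and 2.7e-05 without a partner on the other strand, and over all minus-strand peaks 6.3e-11 and 3.7e-10. What part strand had in this was not tested.

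**Figure D2:**
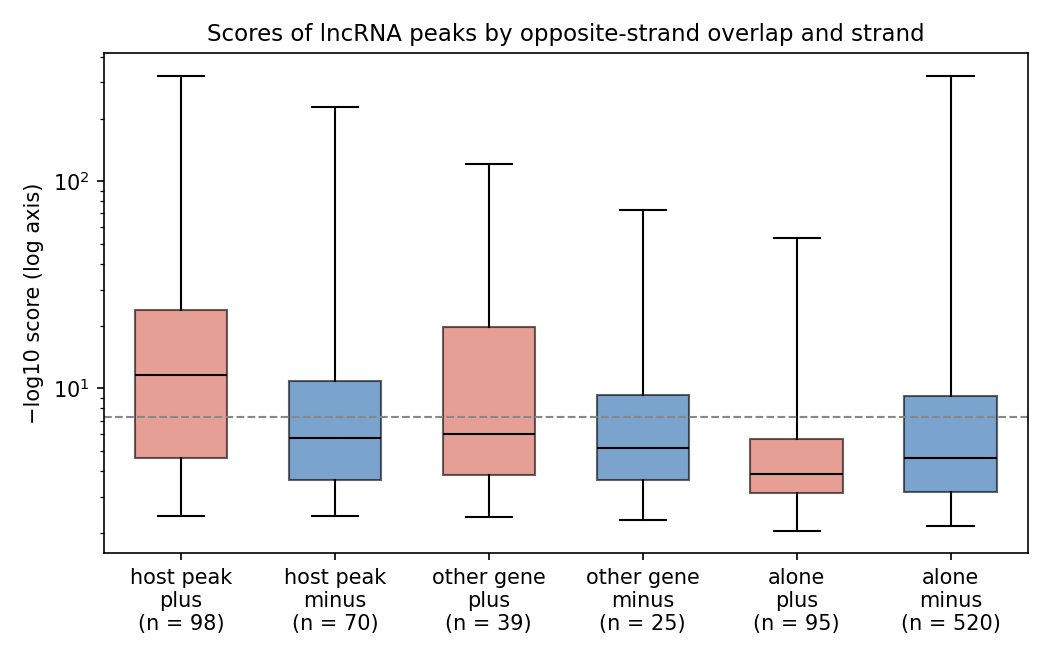
−log10 score (log axis) of the 847 peaks by state and strand; boxes span the quartiles with the median as a line, whiskers reach the lowest and highest peak, and the dashed line is the median of the whole list. Plus-strand peaks (red) that met a host peak had the highest median, and plus-strand peaks that stood alone the lowest, whereas minus-strand peaks (blue) differed less between states.

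Among the 173 pairs, the shared stretch had a median of 154 bases (13 to 1751) and covered at least 90% of the shorter peak in 101 pairs (58.4%). The −log10 scores lay within 10% of each other in 85 pairs (49.1%, 41.8% to 56.5%), against 54.4% of 836 opposite-strand pairs without such a lncRNA. In pairs that shared at least 90% of the shorter peak, 69 of 101 were this close (68.3%), against 373 of 564 other pairs (66.1%). Where less was shared, 16 of 72 were (22.2%). Closeness thus went with the extent of overlap, and was about as frequent as in opposite-strand pairs of other genes.

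The lncRNA peak had the smaller score in 68 pairs, the host peak in 89, and 16 were tied. With the lncRNA on the plus strand the host peak was smaller in 63 of 102 pairs (61.8%, 52.1% to 70.6%), at a median score of 1.8e-12 for the lncRNA and 1.06e-19 for the host. With the lncRNA on the minus strand the lncRNA peak was smaller in 40 of 71 pairs (56.3%, 44.8% to 67.3%), at medians of 1.5e-06 and 4.2e-06. Within pairs the gap was small, with a median −log10 difference (lncRNA minus host) of -0.506 for plus-strand and 0.105 for minus-strand lncRNAs, and in the 57 plus-strand pairs sharing at least 90% of the shorter peak both medians were 4e-13. The stronger peak was thus more often the one on the minus strand, although for minus-strand lncRNAs the interval included 50%. Minus-strand peaks were also the stronger over the whole list, with a median of 3.2e-10 against 1.4e-05 on the plus strand. How often the minus-strand peak was the stronger in opposite-strand pairs of other genes was not computed. Over all 173 host pairs the median size of the difference was 0.819 in −log10 units.

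**Figure D3:**
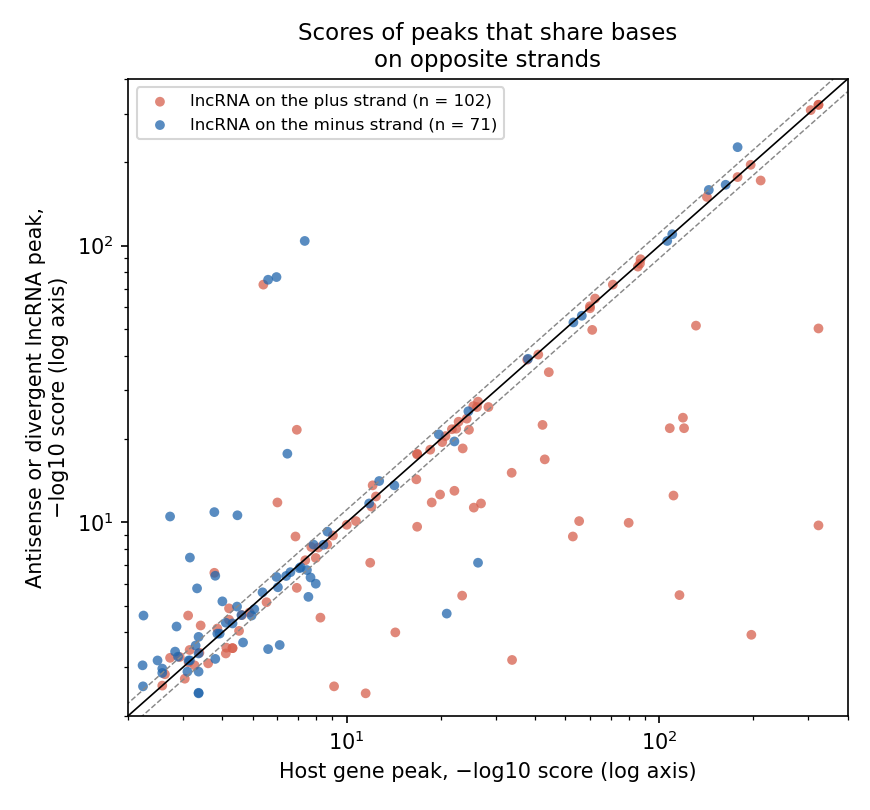
−log10 score of the lncRNA peak against that of the host peak for 173 pairs that share bases (both log axes; a score of 0 is drawn at 323). The solid line marks equal scores and dashed lines a difference of 10%. Many pairs sit on the line over its whole length, and the pairs far below it are mostly plus-strand lncRNAs.

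IER5L-AS1, PHLDA1-AS1 and BDNF-AS had the strongest antisense peaks that met their host, with listed scores equal or near-equal to those of the host. Where both scores were 0, the smallest that can be stored, a difference would not show. The next strongest, SLCO4A1-AS1, was not close to its host (1e-227 against 1e-178). IER5L-AS1, opposite the immediate early response gene IER5L, and PHLDA1-AS1, opposite PHLDA1, which encodes a pleckstrin homology-like domain protein, had scores of 0 on both strands. The PHLDA1-AS1 peak of 330 bases (chr12:76030494-76031139) shared 314 with a PHLDA1 peak of 1021. BDNF-AS, antisense to the gene of brain-derived neurotrophic factor, had a score of 1e-309 and BDNF 1e-305, with 346 of the 360 lncRNA peak bases shared. Each of these lncRNA peaks had 2 blocks, so that it crossed an intron of the lncRNA.

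AFAP1-AS1, a lncRNA known from several carcinomas and antisense to the gene of an actin filament-associated protein, had 3 peaks. The strongest (751 bases, chr4:7763117-7763867) shared 675 bases with an AFAP1 peak, and both had a score of 1e-196. Its peak of 181 bases at the other site had 3.7e-08 against 1.1e-08 for AFAP1, and the remaining one (0.00076) stood alone. Both AFAP1 peaks in the list thus had an AFAP1-AS1 peak on the other strand, near the 3′ end of AFAP1.

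ZNF337-AS1 showed the same over a whole locus. Its 3 peaks each met 1 of the 3 peaks of ZNF337, a zinc finger gene. The scores from the lowest coordinate upwards were 1.6e-10, 7.9e-87 and 2e-18 for the lncRNA and 1e-10, 2e-87 and 1.6e-17 for the host. The peaks were 211, 930 and 271 bases long against 241, 929 and 270, with 211, 909 and 251 bases shared. No peak of either gene lacked a partner.

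ENTPD1-AS1, with 4 peaks on the minus strand opposite ENTPD1, which encodes the ectonucleotidase CD39, was alike. Its scores were 1.6e-21, 1.6e-56, 1e-166 and 0.00026, against 2e-20, 3.2e-57, 1e-163 and 0.00052 for ENTPD1. The shared bases lay between 97.81% and 99.55% of the way along the host, that is, at its 3′ end. At the 3′ end of ZFHX3, a homeobox transcription factor gene, the 3 pairs of ZFHX3-AS1 had 7.9e-27, 2e-22 and 2e-39 against 7.9e-27, 2e-22 and 1.6e-38.

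Among further strong pairs, some were close and others not. The longest shared stretch, 1751 bases, was that of HSD17B1-AS1 (1e-159) and HSD17B1 (1e-144), an oestradiol-forming enzyme. OBI1-AS1 (1e-177) shared 1445 bases with OBI1 (1e-178), a ubiquitin ligase that acts on the origin recognition complex. PXN-AS1 had 1e-150 and paxillin (PXN), a focal adhesion protein, 1e-142. More than 10% apart were CTBP1-AS, where the host CTBP1, a transcriptional corepressor, had the smaller score (1e-211 against 1e-172), and SLCO4A1-AS1, where the lncRNA did (1e-227 against 1e-178 for the transporter gene SLCO4A1). PINK1-AS (1e-39; host, a mitophagy kinase, 1e-38) and BACE1-AS (1e-84; host, beta-secretase, 4e-86), which RefSeq classes as antisense RNA, were also near-equal.

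Of the 16 tied pairs, 2 were ties at 0 and 14 ties at another score. Besides AFAP1-AS1, TMPO-AS1 had the same score as its host, the lamina-associated polypeptide gene TMPO (1e-110, 330 bases shared). This pair lay at the 5′ end of the host, as did the tied pair of ZBTB11-AS1 (2.4e-05). SMAD1-AS1 and SMAD1, a transducer of BMP signals, were tied at 4e-07 over 227 bases, PRC1-AS1 and the spindle gene PRC1 at 7.8e-09 and CNPY2-AS1 and CNPY2 at 4e-13. The others were 2 pairs of ZFHX3-AS1 given above and 1 each of MIA2-AS1 (2.5e-07), RNF213-AS1 (4.9e-05), GDF5-AS1 (0.00042), LIMD1-AS1 (0.00044), MATN1-AS1 (0.00076) and EML2-AS1 (0.0027). Ties thus occurred over the range of scores, from 0.0027 to 0.

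Other pairs were far apart. The 5 in which the host was stronger by most all had the lncRNA on the plus strand. NOP14-AS1 had 1.8e-10 where NOP14, a ribosome biogenesis factor, had 0. H1-10-AS1 had 6.3e-51 and the linker histone gene H1-10 had 0. SEMA6A-AS1 (0.00012) lay with all its 90 bases in a SEMA6A peak of 1648 bases (1e-197), SEMA6A being a semaphorin. SPAG5-AS1 had 3.5e-06 against 1e-116 for the spindle protein gene SPAG5, and CACTIN-AS1 3.2e-13 against 1e-111 for CACTIN.

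The 5 pairs in which the lncRNA was stronger by most were 4 on the minus strand and FAM13A-AS1 on the plus strand. ATP2A1-AS1 (1e-104) met 2 peaks of the calcium pump gene ATP2A1, of which the weak one had 4.6e-08 and the strong one 1e-106. SPEN-AS1 had 1e-77 against 1.1e-06 for SPEN, a transcriptional repressor. ZEB1-AS1 (5e-76, chr10:31318038-31318726) shared 86 bases with the first ZEB1 peak (2.5e-06), at the 5′ end of this gene of a transcription factor that drives epithelial-mesenchymal transition. A weaker ZEB1-AS1 peak (0.00033) lay with all its 180 bases in the same ZEB1 peak. The strongest ZEB1 peak, elsewhere in the gene, had 1e-116 and thus a smaller score than any ZEB1-AS1 peak. FAM13A-AS1 (5e-73) met FAM13A peaks of 3.9e-06 and 1e-71, and SLCO4A1-AS1 has been given above. For ATP2A1-AS1 and FAM13A-AS1 the other host peak that the same lncRNA peak met was therefore close to it in score.

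**Figure D4:**
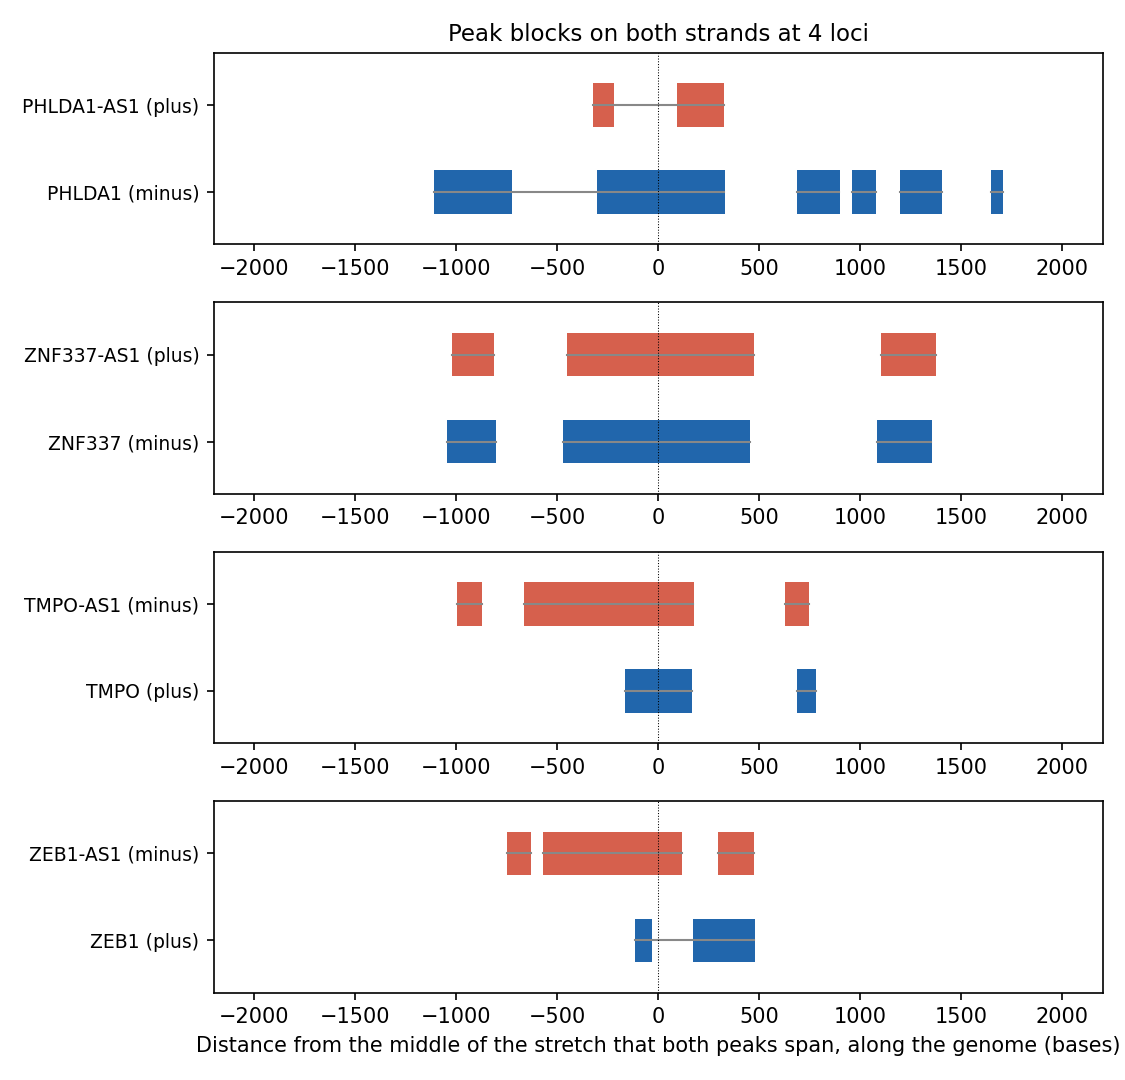
Blocks of lncRNA peaks (red) and host peaks (blue) at 4 loci against the distance in bases from the middle of the stretch that both peaks of the strongest pair span; strand is given beside each name and a thin line joins blocks of 1 peak. The 3 ZNF337-AS1 peaks mirror those of ZNF337, PHLDA1-AS1 and TMPO-AS1 match part of a host or lncRNA peak, and ZEB1-AS1 meets ZEB1 in only 86 bases of its strongest peak.

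Many pairs of antisense lncRNAs lay near an end of their host. Of 169 pairs, 60 (35.5%) had the middle of the shared bases in the first 10% of the host span or before it, 55 (32.5%) in the last 10%, and 54 (32.0%) in between. Where host peaks at large, or opposite-strand pairs of other genes, lie along their genes was not computed. These shares therefore have no level to be set against. All 4 pairs of divergent transcripts lay near the host start. H2AZ1-DT, beside the gene of a histone H2A variant, had 1.3e-09 against 1.3e-53. The 2 pairs of TRIM8-DT, beside a ubiquitin ligase gene, had 0.0013 and 1.3e-07 against 0.00081 and 7.6e-08, and ZNF747-DT had 0.0019 against 0.00093. In each of the 4 the host peak had the smaller score.

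**Figure D5:**
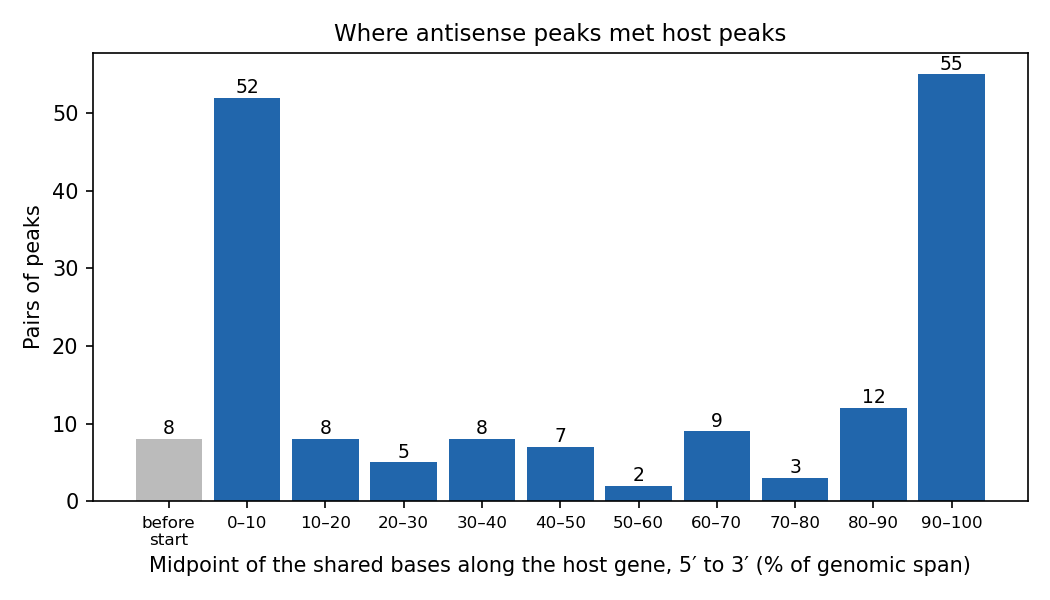
Number of pairs by where the middle of the bases shared by an antisense peak and a host peak lies along the host gene, in steps of 10% of its genomic span from 5′ to 3′; the grey bar holds 8 pairs before the annotated start. The first and last steps hold 52 and 55 of the 169 pairs, and no step between them holds more than 12.

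The 64 peaks that met only a gene other than the host made 70 pairs. In 55 of these the partner gene was protein coding, and in 10 it had no match in RefSeq. Scores lay within 10% in 37 of 70 such pairs (52.9%). The strongest were divergent transcripts and CHMP3-AS1. WDR5B-DT (1e-121, 359 bases) covered all 330 bases of a peak of the importin gene KPNA1 (1e-120). NQO1-DT had 2e-80 and its partner NOB1, a ribosome maturation nuclease gene, 0. CHMP3-AS1 (1e-114) met 2 peaks of RNF103, a ubiquitin ligase gene, of 1e-122 and 0.0011. These 3 lncRNA peaks lay on the plus strand. WDR5B-DT and CHMP3-AS1 each had a partner within 10%, while NQO1-DT did not. ST7-AS1 (1.5e-09) and ST7-OT4 (5.2e-05) were the only 2 of these lncRNAs that met each other.

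Several HOX cluster lncRNAs met a HOX gene peak on the other strand. HOX genes encode homeobox transcription factors that set position along the body axis. HOXA-AS3 had 1e-59 against 5e-61 for HOXA7, with 623 bases shared, and weaker peaks of 4.4e-07 and 0.00015 against 2.9e-05 and 3.1e-08 for HOXA6. HOXA11-AS had 2e-24 against 6.3e-25 for HOXA11. In these, the pair of the strongest lncRNA peak was close. In 4 others the HOX gene was stronger: HOXA10-AS had 1.3e-24 against 1e-119 for HOXA10, HOXB-AS1 1.3e-50 against 1e-162 for HOXB3, HOXB-AS3 2e-53 against 1e-102 for HOXB6 and HOXA-AS2 1.9e-09 against 3.2e-54 and 5e-41 for HOXA3. HOXC-AS2 (7.9e-11) was stronger than the HOXC9 peak it met (0.0068). The single peaks of HOXB-AS4 (7.9e-14), HOXC13-AS (1.7e-08) and HOXC-AS3 (0.00025) stood alone, as did 1 of 2 peaks of HOXA10-AS and 2 of 3 of HOXA11-AS.

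The 615 peaks that stood alone belonged to 366 gene IDs, and 84.6% of them lay on the minus strand. Over the whole list, 13613 peaks without a partner lay on the minus strand and 4616 on the plus strand. Of divergent peaks 91.5% stood alone and of antisense peaks 65.9%. For 370 (60.2%) the host had a peak elsewhere, at a median distance of 11212 bases (antisense 7858, divergent 19170), and in 84 of these the gap was 1 kb or less. For 240 the host had no peak in the list. Strong peaks of the whole list were mostly on that strand, with 2964 minus-strand and 340 plus-strand peaks at a −log10 score of 50 or more. The 12 strongest lone lncRNA peaks all lay on the minus strand.

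FGD5-AS1, a widely expressed lncRNA, had the strongest of them, with a score of 0 over 1045 bases in 2 blocks (chr3:14945115-14947091), and a further one of 1.3e-37. Its host FGD5, which encodes a guanine nucleotide exchange factor, had no peak. ARRDC1-AS1 had 3 peaks with 1e-194, 1e-195 and 1.3e-17, whereas the best of 5 peaks of its host, the arrestin domain gene ARRDC1, had 4.7e-08. NNT-AS1 (1e-157 over 631 bases, and 2 weaker peaks of 5.6e-05 and 2.1e-10) had no peak of its host, the mitochondrial transhydrogenase gene NNT. At these 3 loci the lncRNA thus carried the stronger peak, or the only ones.

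BAIAP2-DT was the strongest divergent transcript, with 1e-137 over 1701 bases and 2 further peaks of 1.3e-75 and 2e-11, and BAIAP2, an adaptor protein gene of the actin cytoskeleton, had none. TBC1D22A-DT (1e-117) and THAP9-AS1 (1e-116) each had a single peak and no host peak. TMEM147-AS1 had 1e-114, 4e-71 and 1.3e-61 for the peaks that stood alone, and a peak of 4e-73 that met a peak of GAPDHS (7.9e-51), the sperm form of glyceraldehyde-3-phosphate dehydrogenase. The remaining genes had a weak host peak elsewhere: OTUD6B-AS1 (1e-124; best host score 0.0023), ZNF213-AS1 (1e-112; 7.9e-05), MAPKAPK5-AS1 (1e-102; 0.00011) and ZNF584-DT (1.3e-95; 7.2e-05). Where the host of these 12 peaks had a peak, its best score was thus 4.7e-08 or weaker.

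On the plus strand, the strongest lone peaks after PITX1-AS1 were those of ECI1-AS1 (1.3e-16), HOXB-AS4 (7.9e-14) and MZF1-AS1 (6.3e-14), named after their values were seen. At the IT and OT genes the peak of GABPB1-IT1 had 2.5e-33, that of ANXA2R-OT1 6.3e-17 and the stronger one of SOD2-OT1 1.3e-14, all on the minus strand and alone. Of the 4 OT peaks, 2 had a partner on the other strand. These were the weaker SOD2-OT1 peak (0.00016), which shared 98 bases with a peak of ACAT2, and that of ST7-OT4, given above.

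GARS1-DT, divergent from the glycyl-tRNA synthetase gene GARS1, had the most peaks, 8, all alone and from 2e-12 to 0.0041. MMP25-AS1 had 7 from 6.8e-06 to 0.0012, and RAB4A-AS1, opposite a gene of endosome recycling, 7 from 2.5e-30 to 0.0013. RNF213-AS1 and SLC9A3-AS1 were also listed with 7. Their counts include entries that nearly repeat each other, such as 480171 to 480557 and 480173 to 480561 on chromosome 5, both with 1.9e-06, because the list runs through the chromosomes a further time in its last 745 rows. Of the 847 peaks, 41 came from there, and merging peaks of 1 gene that share bases left 826.

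A list of 60 lncRNA genes of known loci was looked up, whatever their values. Of these, 36 had a peak, 64 peaks in all, of which 16 met a host peak and 37 stood alone. Over all 847 peaks these shares were 19.8% and 72.6%. TWIST1-AS1, RUNX1-IT1, MAFG-DT and FTO-IT1 are counted among the 60, but their symbols could not be matched to any gene ID. What share of all such lncRNA genes has a peak was not computed, so the counts of genes with a peak have no level to be set against. Of 15 genes at loci of TGF-beta signalling, epithelial-mesenchymal transition and matrix, 7 had a peak. ZEB1-AS1 (5e-76) and LOXL1-AS1 (2e-23, alone; LOXL1 is a collagen and elastin cross-linking enzyme) were the strongest. VIM-AS1 had 3.2e-16 alone and 7.2e-08 against 5e-27 for vimentin (VIM), the mesenchymal intermediate filament. SMAD1-AS1 (4e-07), HAS2-AS1 (2.5e-05, against 0.00078 for the hyaluronan synthase gene HAS2), ITGB2-AS1 (0.00055, against 0.0012 for the integrin gene ITGB2) and SNAI3-AS1 (0.00068, alone) were weak. No peak was listed for ZEB2-AS1, TGFB2-AS1, TGFB2-OT1 or SMAD5-AS1.

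Of 9 HOX cluster genes 7 had a peak, of 19 genes at transcription factor and signalling loci 10 did, and of 17 widely expressed lncRNAs 12 did. FOXD2-AS1, opposite a forkhead gene, had 4 peaks, all alone, at 6.3e-16, 1.3e-19, 3.2e-23 and 2.2e-05. HIF1A-AS3 (1.9e-06), GATA3-AS1 (7.9e-05), PTPRG-AS1 (4.5e-05) and GAS6-AS1 (4.9e-05) had 1 weak peak each, alone, and CDKN2B-AS1 (0.004) met CDKN2A (0.0042), a cell cycle inhibitor gene. GATA6-AS1 had 3.9e-07 where it met GATA6 (0.00016), and 2 weak lone peaks. CEBPA-DT had 3 lone peaks of which the strongest had 1.2e-10, while CEBPA, a myeloid and adipocyte transcription factor, had 1e-177 at its own best peak. Among the widely expressed, PSMA3-AS1 (4e-68 at its strongest peak) stood alone, and SBF2-AS1 (5e-12) met SBF2 (3.2e-26). STARD4-AS1 (1.3e-14) met a peak of NREP (7.9e-15), DNAJC9-AS1 (3.2e-06) one of MRPS16, and UBL7-DT had 0.0038. Of the 2 strongest on the list, FGD5-AS1 stood alone on the minus strand and BDNF-AS met its host on the plus strand.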

How the data were processed

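The 2 input and 2 IP libraries of MDA-MB-231 poly(A) RNA were aligned by the authors with STAR (hg38, GENCODE annotation), and peaks from exomePeak were filtered on fold enrichment and FDR into 1 list. For each peak the deposited list gives blocks, strand and a score, which was taken for an exomePeak p-value. Depth is not given in the list. Whether peak calling used strand is not given in the sources used here.

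Ensembl IDs were matched to symbols (10103 of 10140 IDs), and symbols to RefSeq biotypes (GRCh38.p14), for 4 lncRNA genes through a synonym. The host was the name before the suffix. Peaks shared bases if their blocks overlapped by at least 1 base on opposite strands. A peak stood alone if it shared none. Scores were compared as −log10, with 323 for a score of 0, and called close within 10%. Positions used RefSeq spans, which may differ from GENCODE, and 81.7% of the lncRNA peaks fell within the RefSeq span of their gene. Shares carry 95% Wilson intervals. Python 3.11.15, pandas 2.3.3 and numpy 2.4.6 were used, and the overlap functions were tested on simulated data.

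Genes were named by rule: the 12 strongest host-sharing and 12 strongest lone peaks, the 5 pairs with the largest difference either way, the 5 genes with most peaks, the 3 strongest peaks per suffix, all tied pairs and the looked-up genes with a peak, of which 1 is not reported here. Genes outside the rule (PINK1-AS, BACE1-AS, the pairs of divergent transcripts, the strongest pairs with other genes and those with printed windows) were chosen after their values were seen. Members and lists were chosen with earlier results of these data known. Of the looked-up symbols, 4 are not in the names table. Printed sequences keep to stretches outside protein-coding spans and outside chromosome 8.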

Additional observations from a re-analysis of the deposited data

How the results depend on the processing

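All values rest on 1 peak list made from the 4 libraries together. No paired analysis was possible because the 4 libraries share 1 score per peak, and for the same reason leaving out a replicate could not be applied. Of 23 alternatives, 11 stayed close and 12 moved, where a count moved if it differed by over 1.5 times and a share if it left the interval of the reported share. Restricting to scores at or under the list median left 302 peaks of 235 genes, and moved host sharing to 26.2%, sharing with any gene to 35.1% and lone peaks to 61.9%. Requiring 50% of the shorter peak gave 17.2% for host sharing and 24.3% for any gene. Counted once a gene, host sharing was 27.0%. With no opposite-strand peak allowed within 1000 bases, 60.6% stood alone. Pairs were close in 34.7% within 5%, in 64.7% within 20% and in 68.3% where 90% of the shorter peak was shared. Using only the first run of the list, an alternative added after seeing the data, host sharing was 19.2%. Sequence outside the promoter windows was not used here, so letters under most peaks were not searched.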
